A study of Arabidopsis thaliana with 12 samples.

Results

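In 5-day-old Arabidopsis thaliana seedlings of nup1-1, 200 genes differed from Col-0 in the same direction both without and with abscisic acid (ABA). They were chosen by their measured values: r, the log2 of (nup1-1 value + 1)/(Col-0 value + 1) in FPKM (fragments scaled by transcript length and library size), had to be 1 or more, or -1 or less, in both media, with at least 5 FPKM in the highest of the 4 group values. Of 33201 rows in the deposited tables, 15539 were tested by the authors in both media and reached that floor. Of the 200 genes, 18 (9%) were higher in nup1-1, which is 0.116% of the 15539, and 182 (91.0%) were lower, which is 1.17%. Because these values chose the genes, their genotype differences are descriptions and carry no test.

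The study compared messenger RNA of whole seedlings of the accession Col-0 and the mutant nup1-1, grown on MS (Murashige and Skoog) medium or on MS medium with ABA. Each of the 4 groups (Col-0 untreated, nup1-1 untreated, Col-0 on ABA, nup1-1 on ABA) has 3 samples, and all seedlings were 5 days old. The labels give neither the ABA concentration nor the lesion in nup1-1. The deposited tables hold 1 value per group, so no spread between the 3 samples could be computed and the depth of the libraries is unknown. The SE printed with a log2 fold change was recovered from the authors' deposited test statistic and p-value. Col-0 and nup1-1 libraries of the untreated table are not in the ABA genotype table, so the genotype difference was measured on separate samples in the 2 media.

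NUP1 encodes a plant protein of the nuclear basket, the fibrous structure on the nucleoplasmic side of the nuclear pore. Traffic through the pore is directed by the small GTPase Ran: exportins bind cargo together with GTP-bound Ran in the nucleus, and release it in the cytoplasm after GTP hydrolysis. ABA is the hormone of seed dormancy and drought, and on ABA medium it holds back the greening and growth of young seedlings. Greening itself depends on light signalling, in which B-box proteins act beside the circadian clock, and on GLK transcription factors that activate nuclear genes for the chloroplast.

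NUP1 itself was not in the set. It read 12.8 FPKM in untreated Col-0 and 9.23 in untreated nup1-1, and 13.8 and 7.47 on ABA; the authors' deposited table gave a q-value (their adjusted p-value) of 0.243 untreated and 0.000272 on ABA. Where the lesion lies relative to the reads behind this value is not given, so the row does not check the labels. Green-tissue, root and guard cell lineage markers were measured in all 4 groups, and the flower genes AG, AP3 and PI stayed at or below 0.710 FPKM. Another flower gene on that list, SEP3, read 3.93 and 8.10 FPKM untreated. The 4 green-tissue markers (RBCS1B, LHCB2.1, LHCB3 and CA1, the last a member) had lower values in nup1-1 in both media: their sum was 14005 FPKM in Col-0 and 7669 in nup1-1 untreated, and 7369.7 and 1558 on ABA. Without CA1 the sum was 9972 FPKM in Col-0 and 5860.5 in nup1-1 untreated, and 4975 and 1349 on ABA. The 5 root markers summed to 1919 FPKM in Col-0 and 1564 in nup1-1 untreated, and to 2499 and 3221 on ABA. Most of that sum was PYK10, called in neither medium (q 0.759 and 0.315). On ABA, EXPA7 and COBL9 were called higher in nup1-1 (q 0.000272 for both), and SHR and SCR were not called. The 3 guard cell lineage markers summed to 34.9 and 28.8 FPKM untreated, and to 33.3 and 34.1 on ABA. The part of these markers in the results on lower genes was not tested. In whole seedlings, fewer cells of a type and less RNA per cell cannot be told apart.

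3 kinds of sequence are printed here. The first is the mature miRNAs of the microRNA loci in the set. Another is stretches around G-boxes before the starts of some clock, B-box and photosynthesis genes that were lower. The last is the stretch before LTI78, a stress gene that was higher. The G-box genes were picked because they hold that motif. In the 250 bases searched, RVE8, BBX31 and CAB2, also lower, held none. All printed sequences were read from the RefSeq assembly TAIR10.1. The mature miRNAs are shown because their bases pair with those of their targets. The seed, bases 2 to 8, is in capitals, and all 4 lie on the plus strand at chr1:24884359-24884382, chr4:7845756-7845777, chr4:7846644-7846664 and chr4:7846835-7846855.
miR163: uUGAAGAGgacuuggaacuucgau
miR850: uAAGAUCCggacuacaacaaag
miR863-5p: uUAUGUCUuguugaucucaau
miR863-3p: uUGAGAGCaacaagacauaau
No seed is shared among these 4 sequences.

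The G-box CACGTG (a palindrome, so both strands read alike; it contains the ABRE core ACGTG) is bound by light and ABA response factors, and the I-box GATAAG occurs in promoters of light-regulated genes. In the upstream stretch of RBCS2B, a Rubisco small subunit gene, 1 G-box and 3 I-boxes on either strand are in capitals; in the other 4 only the G-box is. The stretches run 5′ to 3′ toward the gene start from chr5:15382140-15382237, minus strand, chr3:10255798-10255843, plus strand, chr5:5693078-5693123, minus strand, chr5:14753226-14753271, minus strand and chr4:8708749-8708794, plus strand.
RBCS2B: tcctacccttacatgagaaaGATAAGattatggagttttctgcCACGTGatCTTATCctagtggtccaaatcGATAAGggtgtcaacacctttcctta
LHCB2.3: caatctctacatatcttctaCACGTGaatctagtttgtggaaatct
RVE1: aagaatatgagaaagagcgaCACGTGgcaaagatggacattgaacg
RVE2: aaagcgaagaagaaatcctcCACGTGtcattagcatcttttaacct
BBX30: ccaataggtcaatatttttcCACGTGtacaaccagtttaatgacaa
Upstream of LTI78, also known as RD29A (chr5:21240557-21240708, plus strand), the dehydration-responsive DRE core CCGAC occurs 3 times and is in capitals.
LTI78: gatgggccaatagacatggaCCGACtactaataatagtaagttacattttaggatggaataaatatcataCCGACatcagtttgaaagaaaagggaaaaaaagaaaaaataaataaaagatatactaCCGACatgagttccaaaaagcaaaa
Over the 250 bases before the gene start, searched on both strands, 18 of 178 lower genes with a usable sequence (10.11%) held a G-box, beside 7.71% of 15259 genes at the floor. The I-box was in 33 of them (18.5%, beside 12.5%), the ABRE core in 56 (31.5%, beside 24.1%) and the site II motif TGGGCC in 18 (10.11%, beside 17.8%). The evening element AAAATATCT was in 3 (1.69%, beside 2.63%), and the CCA1-binding site AAAAATCT in 15 (8.43%, beside 6.97%). Among the 18 higher genes, the DRE core was in 8 (44.4%), beside 13.3% of all genes at the floor. That was their highest share for any motif searched, and more motifs were searched than are named here. The 8 include AT2G18270 and AT1G03660, which the deposited tables called in neither medium. The ABRE core was in 6 (33.3%, beside 24.1%), the W-box TTGAC in 7 (38.9%, beside 44.5%) and the I-box in 2 (11.1%, beside 12.5%). These are counts of letters in a window; binding was not measured.

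**Figure D1:**
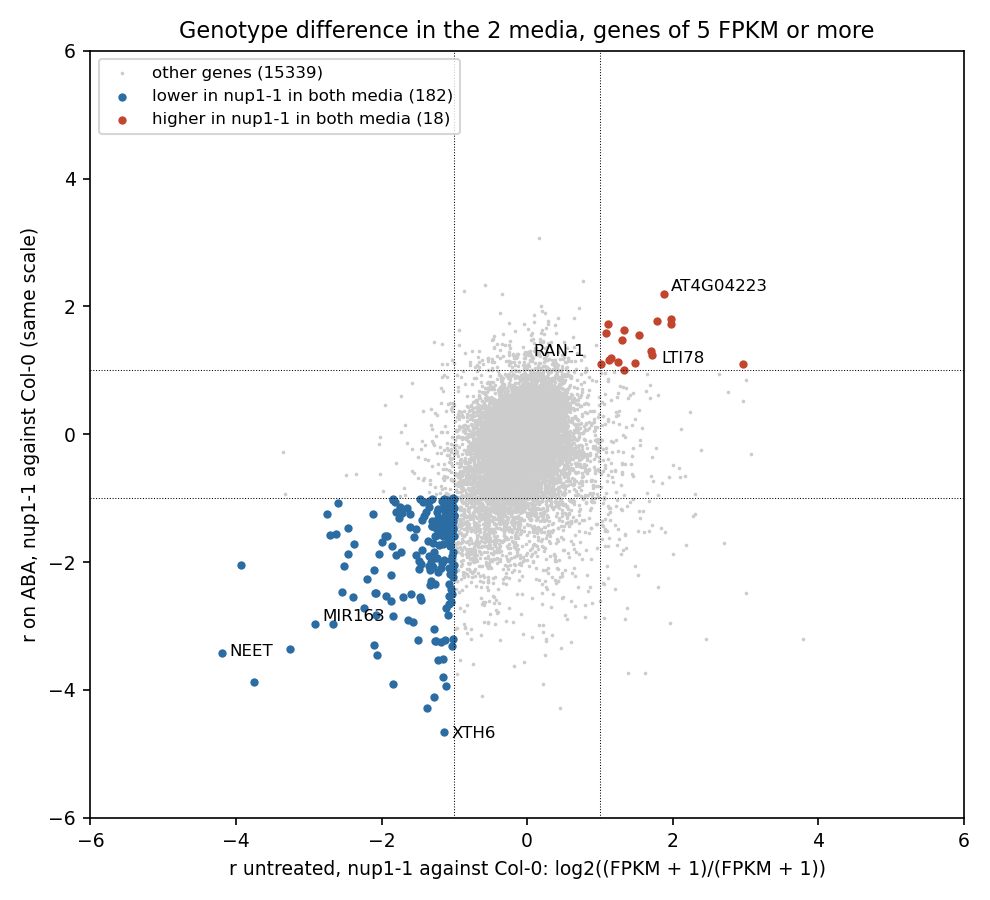
Each point is a gene of 5 FPKM or more, placed by r (log2 of nup1-1 over Col-0 with 1 FPKM added) untreated on the x axis and on ABA on the y axis; dotted lines mark the thresholds of 1 and -1. The 182 lower genes fill the lower left corner and reach -4.19 untreated and -4.66 on ABA, and the 18 higher genes sit in the upper right.

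Higher genes were the smaller side. With ABA absent, 1.23% of genes at the floor had r of 1 or more and 1.96% had -1 or less. On ABA the shares were 1.58% and 9.42%. The 18 genes higher in both media made up 9.42% of the 191 higher untreated and 7.35% of the 245 higher on ABA, whereas the 182 lower genes made up 59.7% of the 305 lower untreated and 12.4% of the 1464 lower on ABA. A further 75 genes (0.483%) passed the threshold in both media with opposite signs, of which 69 were higher untreated and lower on ABA. In the authors' deposited tables a q-value under 0.05 was reached untreated by 2.68% of all tested rows as higher and 3.92% as lower, and on ABA by 15.4% and 23.3%. Of the members, 16 of 18 higher and 156 of 182 lower genes had such a q in both media, and 2 and 9 had it in neither; the rule used these contrasts, so nothing is read from those counts.

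Among the 18 higher genes, 4 belong to the machinery of nuclear transport. RAN-1 (AT5G20010), the Ran GTPase itself, read 210.3 FPKM in untreated Col-0 and 448 in untreated nup1-1, and 228 and 685 on ABA. It was the most abundant of the higher genes. XPO1B, an exportin that carries proteins with a leucine-rich export signal out of the nucleus, read 4.27 against 12.02 FPKM untreated and 4.93 against 15.4 on ABA. AT1G69680, annotated as a ran guanine nucleotide release factor, went from 6.42 in Col-0 to 15.5 FPKM in nup1-1 untreated, and from 8.27 to 20.1 on ABA. AT1G59660, annotated as a nucleoporin autopeptidase, read 1.96 and 7.59 FPKM untreated, and 2.75 and 10.05 on ABA. In each of these genes nup1-1 was above Col-0 in both media.

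The log2 fold changes of RAN-1 were 1.09 (SE 0.25) untreated and 1.58 (SE 0.16) on ABA, and those of XPO1B 1.49 (SE 0.23) and 1.65 (SE 0.15). AT1G69680 had 1.27 (SE 0.25) and 1.28 (SE 0.17), and AT1G59660 1.95 (SE 0.24) and 1.87 (SE 0.17). The rule required r of 1 or more in both media, so nothing is read from how alike the fold changes of the 2 media are. RAN-1 lies beside RAN2, a near-identical copy, and how shared reads were divided is not given; RAN2 was outside the set at 145 and 229.9 FPKM untreated, and 140.5 and 311 on ABA. RAN3, another copy, read 193 and 168 FPKM untreated, and 197 and 242 on ABA.

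These 4 genes were set beside the rest of the machinery with lists drawn up after the values had been seen. Of 22 tested genes of the Ran cycle and its transport receptors, 3 had a deposited q under 0.05 untreated, all higher, and they are the 3 members. On ABA 12 of the 22 were higher and 0 lower, with a median r of 0.40. Of 29 tested nucleoporin genes, 2 were higher and 0 lower untreated, and on ABA 21 were higher and 1, NUP1, was lower, with a median r of 0.44. AT1G59660 was the 1 nucleoporin gene in the set. The median r over all genes at the floor was -0.04 untreated and -0.02 on ABA. Of all tested rows, 2.68% were called higher and 3.92% lower untreated, and 15.4% and 23.3% on ABA. These shares also stand behind the calls of the lists and families below.

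LTI78, ATSDI1 and FAR1 were among the other higher genes. LTI78, a gene induced by drought, cold and ABA, read 12.02 FPKM in untreated Col-0 and 41.9 in untreated nup1-1, and 169 and 402 on ABA. ATSDI1, named for its induction by sulfur deficiency, read 3.02 against 12.8 FPKM untreated and 15.1 against 54.2 on ABA. FAR1, here a fatty acid reductase that makes the fatty alcohols of suberin, went from 4.30 in Col-0 to 16.3 FPKM in nup1-1 untreated, and from 40.4 to 101 on ABA. In all 3 the Col-0 value on ABA was above the untreated nup1-1 value, with the reservation that the 2 genotype tables were normalized separately. The fixed sulfur deficiency list gave 0 members among 15 tested genes, of which the deposited tables called 8 higher and 0 lower untreated, and 5 higher and 4 lower on ABA. The suberin and cutin list gave 0 members among 20 tested genes, with 0 called untreated, and 2 higher and 14 lower on ABA. The entries SDI1 and FAR1 of these lists matched no single locus by symbol, so both genes stand outside these counts.

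ST2A, a sulfotransferase acting on hydroxyjasmonate, read 1.75 against 5.02 FPKM untreated and 16.6 against 38.3 on ABA, and NAC042, the NAC transcription factor also called JUNGBRUNNEN, 0.422 against 2.36 FPKM untreated and 3.38 against 8.58 on ABA. CEP1, a cysteine endopeptidase, read 1.07 and 4.19 FPKM untreated, and 1.202 and 5.80 on ABA, and AT5G60250, which encodes a RING-type zinc finger protein, 0.571 and 2.39 FPKM untreated, and 1.83 and 8.39 on ABA. MUB5, a membrane-anchored ubiquitin-fold protein, was the higher gene nearest to the floor at 1.29 and 3.66 FPKM untreated, and 2.03 and 5.53 on ABA. The values of NAC042, CEP1, AT5G60250 and MUB5 thus lay below 10 FPKM in every group.

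The 4 largest mean r values among the higher genes were those of AT2G18270, AT4G04223, AT1G72800 and AT1G63530. AT4G04223, annotated as a non-coding RNA, read 4.40 against 18.8 FPKM untreated and 4.89 against 25.9 on ABA, and AT1G72800, which encodes a protein with RNA-binding motifs, 4.21 against 19.5 FPKM untreated and 5.64 against 22.1 on ABA. AT1G63530, of unknown function, read 1.14 and 7.44 FPKM untreated, and 1.00 and 5.64 on ABA. AT1G07985 had the smallest r of the higher genes on ABA, 1.01, just inside the threshold, at 2.51 and 7.81 FPKM untreated, and 191 and 386 on ABA.

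AT2G18270 was listed at 0 in Col-0 in both media and at 6.83 and 1.155 FPKM in nup1-1. AT1G03660, an ankyrin-repeat gene, read 0.227 and 2.44 FPKM untreated, and 2.15 and 5.84 on ABA. These were the 2 higher genes that the authors' deposited tables called in neither medium, with q-values of 0.567 and 0.328 for AT2G18270 and 0.475 and 0.0775 for AT1G03660. Just outside the set on this side were SUFE2, with r of 1.198 and 0.97, and, below the floor, AT5G18840, whose highest value was 3.51 FPKM.

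**Figure D2:**
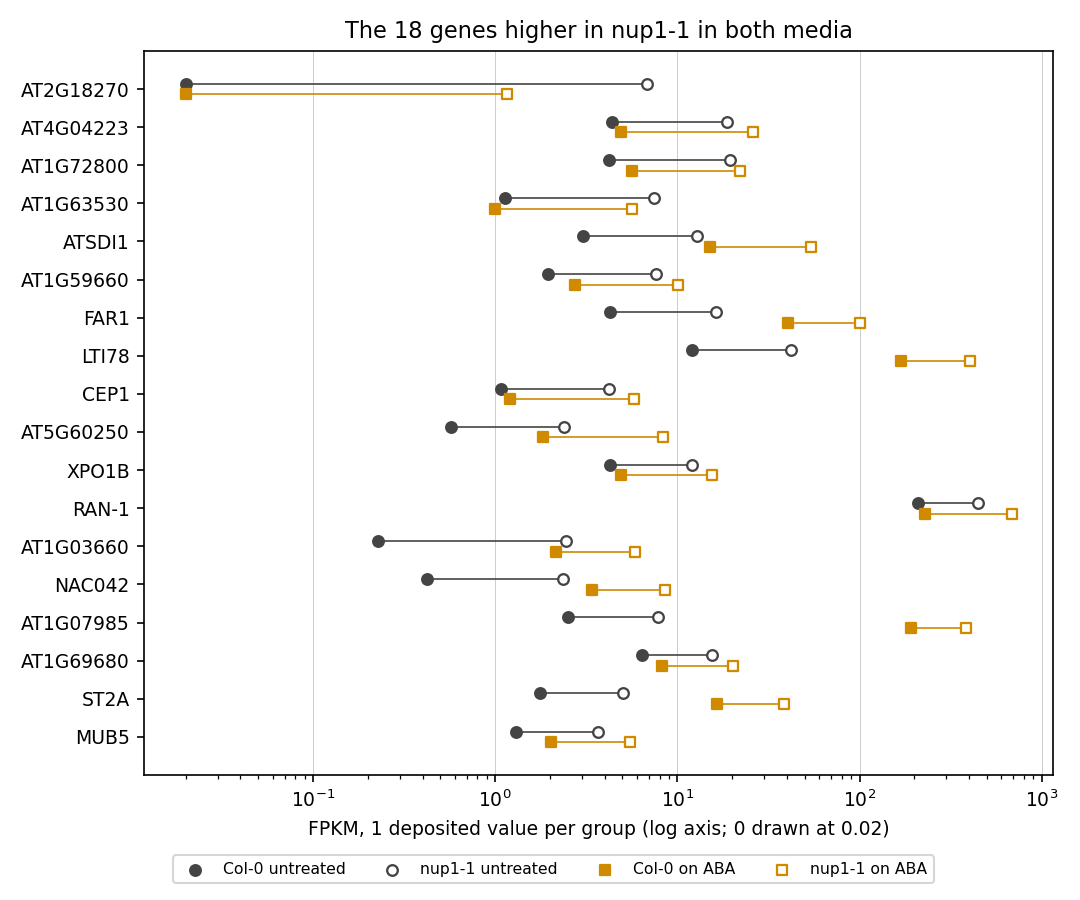
The 18 genes higher in nup1-1, ordered by mean r, with the deposited FPKM value of each group on a log axis (circles untreated, squares on ABA, filled Col-0, open nup1-1; 0 is drawn at 0.02; no error bars, since each group has 1 deposited value). The lines of XPO1B, AT1G69680 and AT1G59660 largely overlap between the media, that of RAN-1 reaches further right on ABA, and those of LTI78, FAR1, ST2A and AT1G07985 lie far to the right on ABA; the tables of the 2 media were scaled separately.

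The lower genes were then described by size of r in each medium. Their median r was -1.26 untreated and -1.71 on ABA, and 136 of the 182 had the larger size on ABA against 46 untreated. The rule used these values. At the floor, 9.42% of genes had r of -1 or less on ABA and 1.96% untreated. Nothing is therefore read from which medium had the larger size. The sizes differed by more than 1 in 43 genes, of which 38 were larger on ABA. Only 17 of the 182 had r of -2 or less in both media. Among the 18 higher genes, 9 had the larger size on ABA and 9 untreated.

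The 15 lower genes of largest mean r included NEET, an iron-sulfur protein. NEET (AT5G51720) read 465 FPKM in untreated Col-0 and 24.6 in untreated nup1-1, and 49.1 and 3.70 on ABA, with log2 fold changes of -4.24 (SE 0.27) and -3.73 (SE 0.29). It had the largest fall of r untreated of all 200 genes. AT2G15020, of unknown function, read 25.9 against 0.765 FPKM untreated and 4.03 against 0.217 on ABA. A joined row of AT5G24240, a phosphatidylinositol kinase-like gene, and AT5G24250 read 11.5 against 0.315 FPKM untreated and 12.7 against 0.329 on ABA, so its nup1-1 values were below 1 FPKM in both media. QQS, an orphan gene of starch and protein allocation, read 10.8 against 0.866 FPKM untreated and 10.2 against 0.419 on ABA. BBX31, a small B-box protein, went from 15.4 in Col-0 to 1.81 FPKM in nup1-1 untreated, and from 9.69 to 0.942 on ABA.

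For some of these 15 the untreated difference was close to the threshold and the ABA difference was far from it. XTH6, a xyloglucan-remodelling enzyme of the cell wall, read 82.6 FPKM in untreated Col-0 and 36.9 in untreated nup1-1, and 49.4 and 1.00 on ABA, and its r was -1.14 untreated and -4.66 on ABA. CT-BMY, the plastid beta-amylase that breaks down transitory starch, read 238 against 96.9 FPKM untreated and 124 against 6.24 on ABA. CYP706A6, a cytochrome P450, read 77.9 against 34.4 FPKM untreated and 15.7 against 0.196 on ABA. In these 3 genes the gap between nup1-1 and Col-0 was far wider on ABA than untreated.

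AT2G05540, a glycine-rich protein, read 279 and 77.3 FPKM untreated, and 96.9 and 5.56 on ABA, and AT2G25510, of unknown function, 56.0 and 12.7 FPKM untreated, and 25.9 and 1.46 on ABA. AT4G22513, a lipid-transfer-type protein, read 56.2 and 25.5 FPKM untreated, and 14.9 and 0.0401 on ABA, and AT3G14340 22.7 and 0.764 FPKM untreated, and 14.01 and 0.0267 on ABA. The last gene had the largest mean r of all lower genes, -3.81, but the authors' deposited tables gave it q-values of 0.679 and 0.384, and AT4G22513 0.129 and 0.152. By r, the genes with the largest untreated difference relative to that on ABA were AT2G47880 and AT2G27420. The glutaredoxin gene AT2G47880 read 26.1 against 3.495 FPKM untreated and 1.29 against 0.0826 on ABA; its r was -2.59 untreated and -1.08 on ABA, but its log2 fold changes, without the added 1 FPKM, were -2.90 and -3.96, so the order turned. The cysteine proteinase gene AT2G27420 read 18.8 against 1.95 FPKM untreated and 8.45 against 2.96 on ABA, with r of -2.75 and -1.25 and log2 fold changes of -3.27 and -1.51, larger untreated by either measure.

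Precursors of small RNAs were among the lower genes. Messenger RNA was sequenced, so the small RNAs made from these precursors were not measured. MIR163, whose miRNA targets methyltransferase transcripts of the SABATH family, read 32.4 FPKM in untreated Col-0 and 3.44 in untreated nup1-1, and 16.3 and 1.204 on ABA, with log2 fold changes of -3.23 (SE 0.32) and -3.76 (SE 0.34). TAS3, the precursor of small interfering RNAs against AUXIN RESPONSE FACTOR transcripts, read 68.0 against 21.0 FPKM untreated and 54.1 against 23.7 on ABA. MIR850 read 21.3 against 7.61 FPKM untreated and 18.4 against 0 on ABA, and it was listed at 0 in the last group. Its row covers the same span as a joined row of MIR863 and the non-coding AT4G13495 (181 and 88.3 FPKM untreated, and 74.3 and 14.95 on ABA), and their reads cannot be told apart. The authors' deposited tables called MIR163 and TAS3 in both media and MIR850 in neither, with q-values of 0.812 and 0.249.

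Clock genes of the morning were among the lower genes. RVE1, a MYB-type factor linking the clock to auxin, read 24.8 FPKM in untreated Col-0 and 5.01 in untreated nup1-1, and 19.0 and 1.03 on ABA. RVE2 read 164 against 49.8 FPKM untreated and 115 against 18.9 on ABA. RVE8, which activates evening-phased clock genes, read 8.48 against 1.201 FPKM untreated and 11.7 against 1.93 on ABA. LNK2 (AT3G54500), a coactivator that works with RVE8, went from 28.6 in Col-0 to 13.3 FPKM in nup1-1 untreated, and from 17.7 to 5.07 on ABA. The log2 fold changes of RVE8 were -2.82 (SE 0.33) untreated and -2.60 (SE 0.23) on ABA, and those of RVE1 were -2.31 (SE 0.24) and -4.20 (SE 0.22). These contrasts chose both genes, so nothing is read from how they compare between media.

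CDF1, a DOF factor that represses CONSTANS, read 21.1 against 6.50 FPKM untreated and 7.91 against 1.93 on ABA, and COL2, a CONSTANS-like gene, 10.8 against 3.39 FPKM untreated and 4.58 against 1.67 on ABA. Of the clock list, 26 genes were tested and 5 were members (RVE1, RVE2, RVE8, AT3G54500 and COL2); the deposited tables called lower 11 of the 26 untreated and 18 on ABA, and higher 0 and 2, with median r of -0.49 and -0.70; its entry CDF1 matched no single locus by symbol and is not counted. The whole family of REVEILLE, CCA1 and LHY genes, examined after its members had been seen, had 6 of 7 tested genes lower untreated and 7 of 7 on ABA. Only 3 of the 7 were members, since 2 of the 7 did not reach the floor and 2 did not reach the threshold in both media. Of all tested rows, 3.92% were called lower untreated and 23.3% on ABA. The labels do not give the hour at which seedlings were collected, and whether it differed between groups cannot be told from these files.

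B-box zinc finger genes had more members in the set than any other family examined, 6 of 26 tested genes. BBX18, BBX30, BBX31 and BBX32 and STH (BBX25) are known regulators of the light response of seedlings, and several act as repressors. STH read 46.8 FPKM in untreated Col-0 and 7.70 in untreated nup1-1, and 23.4 and 5.62 on ABA, BBX18 23.0 against 6.25 FPKM untreated and 16.9 against 4.03 on ABA, BBX30 7.14 against 0.982 FPKM untreated and 4.70 against 0.549 on ABA and BBX32 5.12 against 1.12 FPKM untreated and 3.404 against 0.584 on ABA. BBX32 was the lower gene nearest to the floor. The remaining member is COL2, whose product has B-box domains too. Over the family, which was examined after its members had been seen, the deposited tables called 9 lower and 2 higher untreated, and 21 lower and 1 higher on ABA. Shares over all tested rows were 3.92% lower and 2.68% higher untreated, and 23.3% and 15.4% on ABA.

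Nuclear genes for chloroplast proteins were the most abundant in the set. GLK2, a transcription factor that activates many of them, read 182 against 79.3 FPKM untreated and 121 against 43.5 on ABA. Of the 2 tested GLK genes it was the 1 called lower in each medium, and the other was called in neither. LHCB2.3, a light-harvesting protein of photosystem II, read 472 against 159 FPKM untreated and 212 against 26.9 on ABA, and its log2 fold changes were -1.57 (SE 0.24) and -2.98 (SE 0.16). PSAN, a photosystem I subunit, read 4522 against 1800.5 FPKM untreated and 1769.9 against 404 on ABA. In GLK2, LHCB2.3 and PSAN, nup1-1 was below Col-0 in both media.

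CAB2, a chlorophyll-binding protein with near-identical neighbouring copies, read 5137 against 2267 FPKM untreated and 2523 against 589 on ABA. RCA, which activates Rubisco, read 7247 against 3422 FPKM untreated and 4029.6 against 564 on ABA, and RBCS2B, whose upstream sequence is printed above and which has near-identical copies beside it, 5674 against 2541 FPKM untreated and 3567 against 1183 on ABA. PETC, the Rieske protein of the cytochrome complex, read 2726 against 1343 FPKM untreated and 1254 against 349 on ABA. For CAB2 and RCA the authors' deposited table gave q-values of 0.0614 and 0.295 untreated, with SE of 0.41 and 0.59 on the log2 scale, and 0.000272 on ABA.

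Of the nuclear photosynthesis list, 29 genes were tested, and the 5 members were CAB2, PSAN, PETC, RBCS2B and RCA. Untreated, the deposited table called 3 of the 29 lower and 0 higher, with a median r of -0.67. On ABA the deposited table called 29 of 29 lower, with a median r of -1.85. Of all tested rows, 3.92% were called lower untreated and 23.3% on ABA. Carbonic anhydrase CA1 read 4032 against 1808 FPKM untreated and 2395 against 209 on ABA. GUN5, the chlorophyll-synthesis subunit of magnesium chelatase that also gave its name to plastid-to-nucleus signalling, read 424 against 189 FPKM untreated and 209 against 70.1 on ABA. PGR5, needed for cyclic electron flow, read 266 against 112 FPKM untreated and 175 against 62.5 on ABA. Photorespiration was represented by GGT1, HPR and GDCH, and GDCH, just inside the threshold with r of -1.001 untreated, read 1193 against 596 FPKM untreated and 844 against 281 on ABA. AT4G32590, just outside it at r of -0.998 untreated, read 201 and 100.3 FPKM.

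**Figure D3:**
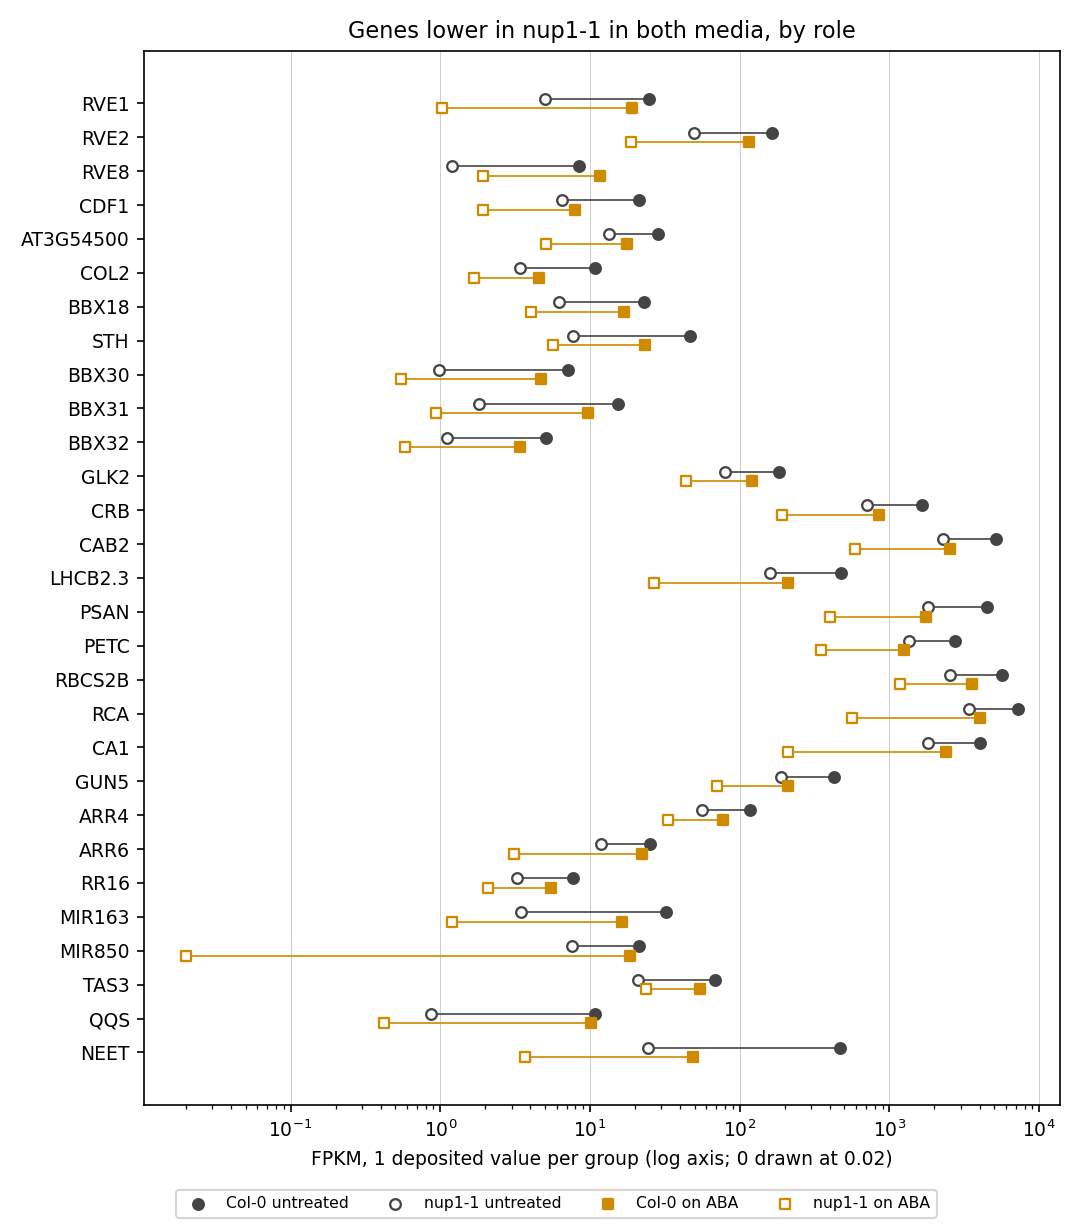
Deposited FPKM values of 29 genes lower in nup1-1, by role from clock genes at the top through B-box, chloroplast and response regulator genes to small RNA precursors, QQS and NEET, on a log axis (symbols as for the higher genes; 0 is drawn at 0.02; no error bars, since each group has 1 deposited value). Open symbols lie to the left of filled ones in every gene and medium, and for RVE1, ARR6, CA1 and LHCB2.3 the gap is wider on ABA.

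Cytokinin signalling was represented by type-A response regulators, which dampen the hormone's response. ARR4 read 118 against 56.3 FPKM untreated and 77.5 against 33.4 on ABA, ARR6 25.04 against 11.8 FPKM untreated and 22.3 against 3.12 on ABA and RR16 7.75 against 3.27 FPKM untreated and 5.52 against 2.07 on ABA. On the cytokinin list, 3 of 16 tested genes were members, and the deposited tables called 5 lower and 1 higher untreated, and 13 lower and 0 higher on ABA. Among all tested rows, 3.92% were called lower untreated and 23.3% on ABA. Other fixed lists gave few members. LTI78 was the 1 member of 20 tested ABA and dehydration genes, of which 8 were higher and 0 lower untreated, and 4 higher and 8 lower on ABA; it is also the 1 member of 11 cold genes. CYP82C4, which hydroxylates an iron-mobilizing coumarin, was the 1 member of 25 iron genes, and TIFY7, a JAZ repressor, that of 19 jasmonate genes. Of the iron genes, 7 were called lower and 1 higher untreated, and 18 lower and 2 higher on ABA. The jasmonate genes mostly went the other way from TIFY7 untreated, with 7 called higher and 1 lower. On ABA 0 of them were called higher and 10 lower.

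Several enzymes of hormone and redox metabolism were lower as well. The methyl esterases MES8, MES9 and MES16, relatives of enzymes that release hormones from their methyl esters, were 3 of 16 tested family members, and MES9 read 34.1 against 11.2 FPKM untreated and 32.1 against 7.99 on ABA. VTC2, the controlling enzyme of ascorbate synthesis, read 163 against 52.8 FPKM untreated and 152 against 63.6 on ABA. DIR1, a lipid-transfer protein of systemic resistance, read 268 against 74.0 FPKM untreated and 195 against 26.4 on ABA, and the thionin THI2.2 171 against 39.9 FPKM untreated and 73.3 against 12.3 on ABA. UPI, a protease inhibitor, read 217 against 40.8 FPKM untreated and 221 against 66.4 on ABA. In VTC2 and UPI the fold was smaller on ABA, and in MES9, DIR1 and THI2.2 it was larger.

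The seed storage genes CRU3 and SESA3 were members too, on a list with more genes higher than lower in nup1-1 on ABA. CRU3, a cruciferin, read 3.94 FPKM in untreated Col-0 and 1.05 in untreated nup1-1, and 715 and 237 on ABA. SESA3, a seed albumin, read 4.16 against 1.51 FPKM untreated and 10.6 against 3.03 on ABA. Both were on the list of 21 tested seed maturation genes, of which the deposited tables called 4 lower and 0 higher untreated, and 11 higher and 6 lower on ABA, with median r of -0.70 and 0.39. In the authors' deposited tables CRU3 had a q-value of 0.368 untreated and 0.000272 on ABA, and SESA3 0.0313 and 0.000272. CRU3 was also a marker of seed tissue here. The other 3 seed markers (CRA1, OLEO1 and SESA4) summed to 10.03 FPKM in Col-0 and 3.15 in nup1-1 untreated, and 1933 and 1938 on ABA; on ABA, OLEO1 was higher in nup1-1 (q 0.00539) and CRA1 was not called (q 0.546). Their part in the result was not tested.

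The response of the set to ABA within a genotype was not used to choose it, although those tables share libraries with the genotype tables. In Col-0, 118 of the 182 lower genes (64.8%) were lower on ABA at a deposited q under 0.05, 5 were higher and 59 were not called. Among genes at the floor, 8.24% were lower on ABA in Col-0 and 7.81% higher. In nup1-1, 136 (74.7%) were lower, 5 higher, 39 not called and 2 not tested, beside 26.6% lower and 23.0% higher at the floor. In all, 108 genes were lower on ABA in both genotypes, with a median r of -1.16 in Col-0 and -1.66 in nup1-1. The share of all genes at the floor called lower in both genotypes was not computed, so nothing is read from the 108. A gene of the set had to be low in nup1-1 on ABA, which is the group that the nup1-1 response is read from; the Col-0 response is read from the 2 groups that had to exceed nup1-1.

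NEET changed by -3.43 on the log2 scale on ABA in Col-0 and by -2.92 in nup1-1 (q of 0.000716 and 0.000208 in the authors' deposited tables). FBA5, an aldolase, changed by -2.66 and -4.48, and LHCB2.3 by -1.36 and -2.76, with the same q-values. For NEET the untreated nup1-1 value, 24.6 FPKM, was below the Col-0 value on ABA, 49.1, although levels from separately normalized tables compare only roughly. XTH6 changed by -0.94 in Col-0 and by -5.40 in nup1-1.

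A further 27 lower genes were called on ABA in neither genotype. The share of all genes at the floor called in neither was not computed. Singly, 8.24% were lower and 7.81% higher on ABA in Col-0, and 26.6% and 23.0% in nup1-1. Nothing is read from the count. The 27 genes included RVE8, QQS, VTC2, TAS3, MES16, RR16, STH, BBX30, BBX32, MIR850 and RCI2A, a small stress-responsive membrane protein. Their median r between genotypes was -1.53 untreated and -1.44 on ABA, and their median r on ABA was -0.43 in Col-0 and -0.37 in nup1-1. MES16, for example, read 15.1 against 5.58 FPKM untreated and 17.7 against 5.93 on ABA, and its log2 change on ABA was 0.04 in Col-0 (q 0.969 in the authors' deposited table) and -0.10 in nup1-1 (q 0.751). RVE8 changed by 0.27 (q 0.565) and 0.49 (q 0.217). A q above 0.05 does not show that a gene did not respond.

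Another 28 lower genes were called lower on ABA in nup1-1 but not in Col-0, among them RVE1, ARR6, TIFY7 and AOR. Of all genes at the floor, 26.6% were called lower on ABA in nup1-1 and 8.24% in Col-0. The share with the pattern of the 28 was not computed, so nothing is read from that count. RVE1 changed by -0.58 in Col-0 (q 0.0613 in the authors' deposited table) and by -2.47 in nup1-1 (q 0.000208). The difference between these responses was not tested, since it is the same quantity as the difference between the genotype contrasts that chose the genes. Genes that rose on ABA in Col-0 were CRU3, SESA3, AT3G28270, CSLB03 and RAP2.6, and CRU3 rose by 7.31 on the log2 scale.

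Of the 18 higher genes, 7 (38.9%) were higher on ABA in Col-0 and the same 7 in nup1-1: LTI78, FAR1, ATSDI1, ST2A, NAC042, AT5G60250 and AT1G07985. Among genes at the floor, 7.81% were higher on ABA in Col-0 and 23.0% in nup1-1. LTI78 rose by 3.62 on the log2 scale in Col-0 and 3.07 in nup1-1, and AT1G07985 by 6.05 and 5.44 (q of 0.000716 and 0.000208 in the authors' deposited tables for both genes). The 4 nuclear transport genes were among 9 higher genes called in neither genotype. At the floor, 8.24% of genes were called lower on ABA in Col-0 and 26.6% in nup1-1, besides the higher shares above. The share called in neither was not computed, so nothing is read from the 9. RAN-1 changed by -0.08 (q 0.917) in Col-0 and 0.42 (q 0.0565) in nup1-1, and XPO1B by 0.01 (q 0.990) and 0.17 (q 0.367) in the authors' deposited tables.

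**Figure D4:**
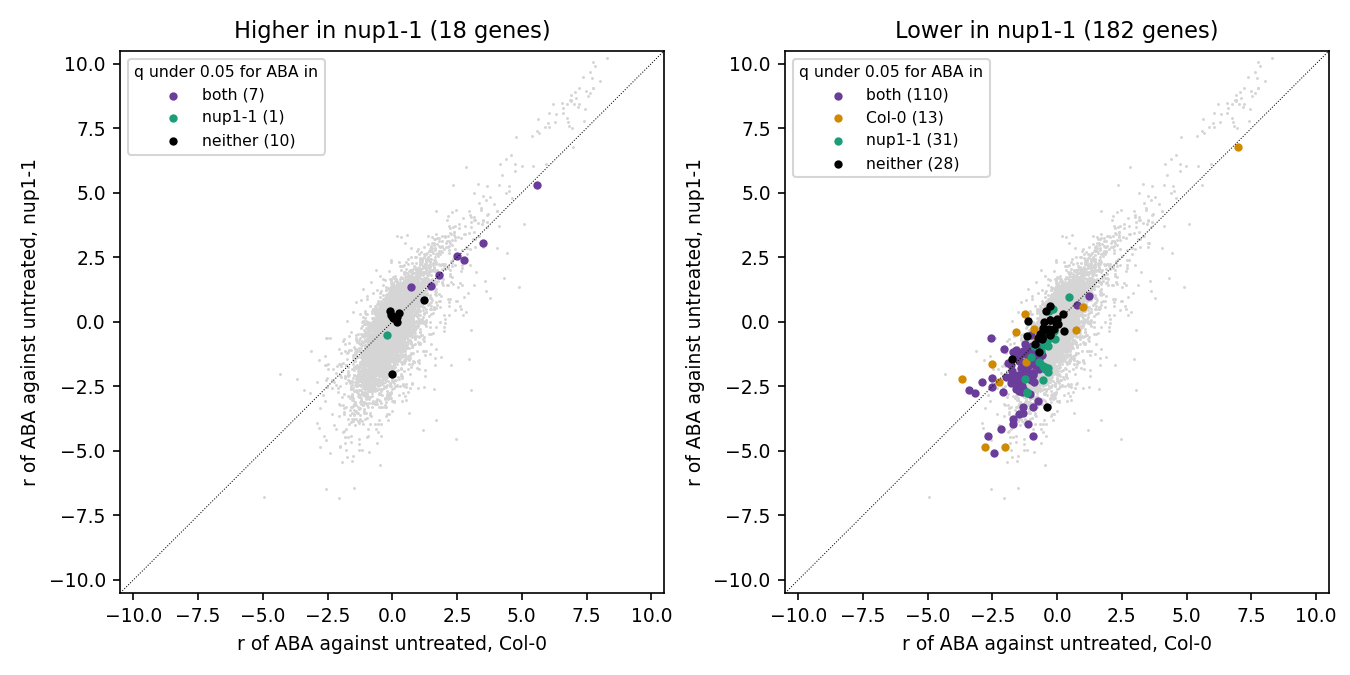
Response to ABA, r with 1 FPKM added, in Col-0 (x axis) and nup1-1 (y axis) for the 18 higher genes (left) and the 182 lower genes (right), over all genes at the floor in grey; colours give the genotypes in which the deposited q was under 0.05, and the dotted line marks equal responses. Most lower genes lie left of and below 0, and 7 higher genes lie at the upper right while most of the others lie near 0, except AT2G18270 below and AT1G03660 above; 1 lower gene counted under neither was not tested in nup1-1.

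Features that the rule did not use were compared next. Of 178 lower genes with a single gene model, 52 (29.2%) had 1 exon, beside 14.4% of genes at the floor, and the median number of exons was 2, beside 5. Their median length of spliced exons was 1111 bases, beside 1710.0. The same shares stood at 32.6% for all genes lower untreated, 24.5% for all lower on ABA, 35.3% for all higher untreated and 24.6% for all higher on ABA, so few exons were common to genes past the threshold in any of the 4 directions. Where the annotation gives a location, 41 of 106 lower genes (38.7%) were assigned to the endomembrane system, cell wall or outside of the cell, beside 18.6% of genes at the floor, and 31 (29.2%) to the plastid, beside 21.9%. A nuclear location was given for 1 (0.943%), beside 11.2%. The nuclear share stood at 1.744% for all genes lower untreated and 4.79% for all lower on ABA. It was 6.0% for all higher untreated and 10.07% for all higher on ABA. A low nuclear share was thus not particular to the 182 lower genes. The endomembrane share stood at 36.0% for all genes lower untreated, 30.7% for all lower on ABA, 34.0% for all higher untreated and 44.97% for all higher on ABA, and the plastid share at 32.0%, 33.9%, 19.0% and 10.7%. Of the 18 higher genes, 4 (22.2%) had 1 exon, the median number of exons was 3.5, and of 10 with a location 2 were assigned to the endomembrane system or outside, 3 to the plastid and 2 to the nucleus.

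**Figure D5:**
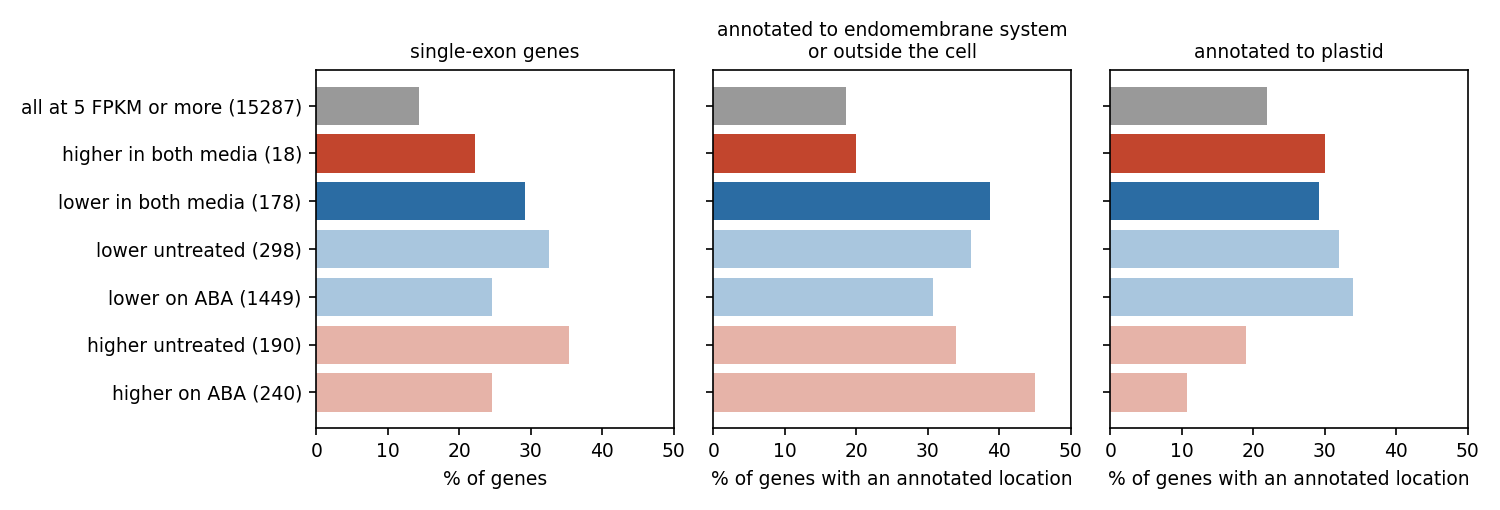
Percentage of genes with a single exon (left), and, among genes with an annotated location, of genes assigned to the endomembrane system, cell wall or outside of the cell (middle) and to the plastid (right), with the number of genes of each group in brackets. The blue bar of the 182 lower genes, here without 4 joined rows, stands above the grey bar of all genes at the floor in all 3 panels, and the pale bars show genes past the threshold in a single medium.

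By product name, 9 of the lower genes (4.95%) fell in a photosynthesis or plastid class, beside 0.972% of genes at the floor, 8 (4.40%) in a cell wall class, beside 1.63%, and 31 (17.03%) among proteins of unknown function, beside 8.11%. The set was spread over the genome. Chromosome 3, which carries NUP1, held 20.5% of members and 20.1% of genes at the floor. Within 500 kb of NUP1, 3 of 196 genes at the floor were members (1.53%, beside 1.29% overall): LAC7, RVE8 and AT3G11110. Only 5 pairs of members were direct neighbours on a chromosome and none formed a run of 3. These included RVE1 with UGP2, BBX18 with FBA1, and MT1C with the joined row of MT1A, and the MIR850 pair overlaps.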

How the data were processed

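Messenger RNA of 12 seedling samples in 4 groups of 3 was sequenced. Reads were checked with FastQC, trimmed with Trimmomatic and aligned with TopHat to TAIR10, per the submitters' processing notes, which name these tools without versions; which program wrote the tables is not stated in them. Per the file headers, each of the 4 deposited tables compares a pair of groups and holds 1 FPKM value per group, a test statistic (a score), and a p-value with the authors' q-value adjusted over the table. The tables do not state whether reads were counted by strand or how the 3 samples of a group were combined. Depth is not given, so no counting interval could be formed. If the samples were not separate cultures, the deposited p-values measure a spread that may be technical.

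From these values r = log2((second + 1)/(first + 1)) was computed, and rows marked as tested in both genotype tables with at least 5 FPKM in 1 of the 4 values were selected at r of 1 or more in size in both (Python 3.11.15, pandas 2.3.3, numpy 2.4.6). Calls within a genotype use the deposited q under 0.05. The SE of a log2 fold change is its size divided by the test statistic times a factor (1.74 in each table) that makes a normal p match the deposited p. The selection and the factor were tested on simulated data. The value of 1 group differs between tables by a constant factor (0.869 to 1.149), so tests and fold changes stay within a table and levels set side by side across media are rough. Of the 33201 rows, 32208 matched a RefSeq TAIR10.1 locus, as did 199 of the 200 members; 94.6% of matched rows lie within 2000 bases of it. Promoters are the 250 bases before the annotated start.

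The named genes are the 15 of largest mean r in each direction, members of fixed gene lists, members near NUP1 or beside each other, those with the most unequal r in the 2 media and those at the thresholds. NUP1 and RAN copies were added, and gene families, the transport lists and other examples were chosen after their values were seen. The members and all lists were chosen with earlier results of these data known. A fixed list of nuclear pore symbols matched 10 of 32 entries and was replaced by a list of loci.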

Additional observations from a re-analysis of the deposited data

How the results depend on the processing

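The number of lower genes, 182, stayed within 1.5 times under every alternative run except the stricter thresholds, with 40 genes at 1.5 and 17 at 2. The number of higher genes, 18, became 30 with a pseudocount of 0.1 FPKM, 29 without a pseudocount, 9 with a floor of 20 FPKM, 5 at a threshold of 1.5 and 0 at 2; the first 2 counts include 18 and 17 of the 18. Centring r on its median, a shift of -0.04 untreated and -0.02 on ABA, left 18 higher and 153 lower genes, all of them members. Requiring the deposited q under 0.05 in both media left 16 and 156. The share of lower genes called lower on ABA in Col-0, 64.8%, was 53.3% at q under 0.01 and 43.4% when r of 1 or more in size was also required, and in nup1-1, where it was 74.7%, 67.6% and 59.9%. No member's mean r changed sign with a pseudocount of 0.1 or with centring; it moved by more than its SE in 76 of 200 genes with the former and in 1 with the latter. No paired analysis was possible because the tables hold 1 value per group, and for the same reason no replicate could be left out. Genes below about 5 FPKM, and those listed at 0, are limited by a depth that is unknown here.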
